A study of Mus musculus with 16 samples.

Results

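The transcripts described here are those of amphiregulin and its relatives in the EGF family: the ligand genes Areg, Ereg, Hbegf, Btc, Tgfa and Nrg1, the receptor genes Egfr, Erbb2 and Erbb3, and Errfi1, an inhibitor of these receptors. They were chosen by symbol, 10 genes of the 31274 features measured by RNA-seq in mouse uterus. The study compared 2 strains of mice, and all of its groups carried Cre recombinase driven by the progesterone receptor gene (Pgr-Cre). In the strain called PRA here (PgrcrePgrALsL/+) Cre switches on a transgene for progesterone receptor isoform A, and in the strain called PRB (PgrcrePgrBLsL/+) a transgene for isoform B. Mice had been housed to 8 weeks of age, and per the labels they were ovariectomized for 2 weeks and given oil or progesterone (P4) for 6 h before the whole uterus was taken. The 4 groups, PRA oil, PRA P4, PRB oil and PRB P4, had 4 labelled biological replicates each, 16 libraries in all.

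Several properties of the design bear on every value. Pgr-Cre is active where the progesterone receptor gene is active, which in the uterus includes epithelium, stroma and muscle. Mice that lack both transgenes were not analysed here; the references are the oil group of the same strain and the other strain. The labels' treatment field speaks instead of mated females at pregnancy day 4, which conflicts with the titles, the characteristics and the stated design; the groups follow the latter. Position codes in the labels begin with A in every PRA library and with B in every PRB library, and run from oil to P4 within each, so position cannot be told apart from strain and treatment. The p-values measure the spread among the labelled replicates, and in whole uterus fewer cells of a type and less RNA per cell cannot be told apart.

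EGF family ligands are made as membrane-anchored precursors, and proteases of the ADAM family cut them loose so that they can bind receptors on the same or neighbouring cells. Amphiregulin, epiregulin, TGF-alpha, betacellulin and HB-EGF bind the EGF receptor, while neuregulin 1 binds ErbB3 and ErbB4; ErbB2 has no known ligand and acts as the partner of the others, and the activated receptors signal through Ras and the ERK kinases. In rodent uterus Areg is known as a progesterone-responsive transcript of the epithelium before implantation, and HB-EGF as a ligand that takes part in the exchange between embryo and uterus.

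Promoter sequences show what lies next to the start of Areg and Errfi1, the 2 tested members with the largest responses to P4 on the log2(FPKM + 1) scale. RefSeq windows (GRCm38.p6, the patch release of mm10) of 300 bases, 250 before the start and 50 from it, were found for 6 of the 10 members, with 2 windows for Errfi1. The Areg window is chr5:91139349-91139648 and the Errfi1 window that held a match is its second, chr4:150854820-150855119, both on the plus strand. Both are printed 5′ to 3′, with TGACG or its reverse complement in capitals.
Areg: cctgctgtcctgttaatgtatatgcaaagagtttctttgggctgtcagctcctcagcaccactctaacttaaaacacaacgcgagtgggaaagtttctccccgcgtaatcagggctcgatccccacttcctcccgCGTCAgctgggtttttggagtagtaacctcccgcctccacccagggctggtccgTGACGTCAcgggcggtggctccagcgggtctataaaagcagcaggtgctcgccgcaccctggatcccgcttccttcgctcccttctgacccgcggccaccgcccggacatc
Errfi1: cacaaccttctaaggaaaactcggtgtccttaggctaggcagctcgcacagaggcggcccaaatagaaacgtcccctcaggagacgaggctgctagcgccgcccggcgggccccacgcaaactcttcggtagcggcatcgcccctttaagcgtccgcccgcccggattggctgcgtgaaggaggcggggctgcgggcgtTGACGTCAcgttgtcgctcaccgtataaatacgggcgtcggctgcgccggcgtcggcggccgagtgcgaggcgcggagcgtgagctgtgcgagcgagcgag
The full cAMP response element, TGACGTCA, began at position -61 in Areg and at -51 in Errfi1, where -1 is the last base before the start. Searched on both strands, it was in 1.79% of 32851 RefSeq windows of the same length. Its half-site TGACG, which overlaps it, was in 20.8% of windows, and among members it also occurred at -115 in Areg, at -113 in Btc and at -171 in Erbb2. The progesterone and glucocorticoid receptor palindrome was in 0.00913% of windows, its half-site TGTTCT in 19.0%, and the oestrogen receptor palindrome in 0.07%; none of these was in a member's window. The windows of Tgfa and Egfr and the first window of Errfi1 held no match to any of the 5 motifs. These are matches of letters and describe no binding.

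The libraries were of similar size. Total FPKM (fragment counts scaled by the length of the transcript and the depth of the library) lay between 499748 and 595748. The steps between low values of long genes that have 1 transcript each put the depth at 57.2 M to 69.1 M fragments (M, mega), after any scaling by the authors. Of 860 such genes, 9 to 22 set the estimate in each library, which was searched within a preset range of depths. Markers of the layers of the uterus were measured in every library: the summed level of 7 epithelial markers was 742 to 1488 FPKM, of 7 stromal markers 863 to 1237 and of 5 smooth muscle markers 958 to 1616. PRB P4 replicate 3 stood apart from its group, with the highest summed epithelial (1488 FPKM) and gland (305) markers of all libraries and the lowest smooth muscle markers (958). Its gland sum was high through Spink3 (65.997 FPKM). Of the other gland markers, Cxcl15 (2.80) was the lowest of its group, and Foxa2 was 5.19 in a group range of 4.46 to 10.9. This library also held the highest Egfr, Hbegf and Tgfa values of its group and the lowest Areg and Errfi1 values. Results that turn on it are given without it. Pgr, whose value here sums endogenous and any transgene-derived transcripts of both isoforms, was 64.9 ± 5.52 FPKM with oil and 73.9 ± 1.80 with P4 in PRA, and 83.5 ± 4.49 with oil and 112 ± 22.3 with P4 in PRB (SD, n = 4). With P4 it was higher in PRB by 0.57 in log2(FPKM + 1) (limma, adjusted p under 0.05). With oil the 0.36 did not reach this, and the rise with P4 in PRB, 0.39, did. The PRB oil and P4 libraries overlapped, and that call was lost in 1 of 25 alternatives. In PRA the P4 difference, 0.19, was not called but was called in 2 of 25 alternatives. All PRB libraries lay above all PRA libraries given the same treatment. Separation of the strains in either direction was seen in 3.39% of tested features with oil and 20.2% with P4. PRB lay above in 192 of 15408 features with oil and in 1422 with P4. Pgr in PRB P4 replicate 3 was at 78.5 FPKM, against 121 to 126 in the rest of its group. The part of Pgr level in the strain results was not tested.

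Of the 10 members, 9 reached a mean of 1 FPKM over all libraries and were tested with limma among 15408 features on the log2(FPKM + 1) scale, where called means an adjusted p under 0.05. The exception was Ereg, at a mean of 0.0865 FPKM, and Areg passed only through its P4 libraries. After P4, 8 of the 9 were called in PRA, 4 higher (Areg, Errfi1, Egfr and Hbegf) and 4 lower (Btc, Erbb2, Erbb3 and Tgfa). Over all features 69.8% were called in this comparison, 36.6% higher and 33.2% lower. In PRB 8 of 9 were also called, 4 higher (Areg, Errfi1, Hbegf and Egfr) and 4 lower (Btc, Erbb2, Erbb3 and Nrg1), beside 69.1% of all features, 36.2% higher and 32.9% lower. With so many features called, the number of members called is not by itself a result about them. The same holds for oil and P4 libraries that do not overlap. Among the 9 tested members these libraries overlapped for 1 in each strain. Among all 15408 tested features they overlapped for only 5204 in PRA and 6006 in PRB. Separation of oil from P4, given below for single members, was thus common among all features. Between the strains none of the 9 was called with oil, where the background was 0.117% (0.0389% higher and 0.0779% lower in PRB) and 802 features had an unadjusted p under 0.05. With P4, 4 were called, 3 higher and 1 lower in PRB, against a background of 16% (7.75% higher, 8.29% lower). The P4 response differed between the strains for 1, Areg, against 2.28% of all features (1.47% larger and 0.811% smaller in PRB). Without PRB P4 replicate 3, the counts were 3 higher and 5 lower for the P4 response in PRB, 3 higher and 2 lower between the strains with P4, and 1 larger and 1 smaller for the difference. The median member difference was -0.11 for the P4 response in PRA and -0.23 in PRB, against 0.01 and 0.00 over all features. With 4 members called in each direction, each median is the value of 1 uncalled gene, Nrg1 in PRA and Tgfa in PRB. It does not by itself show a shift of the members as a set.

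**Figure D1:**
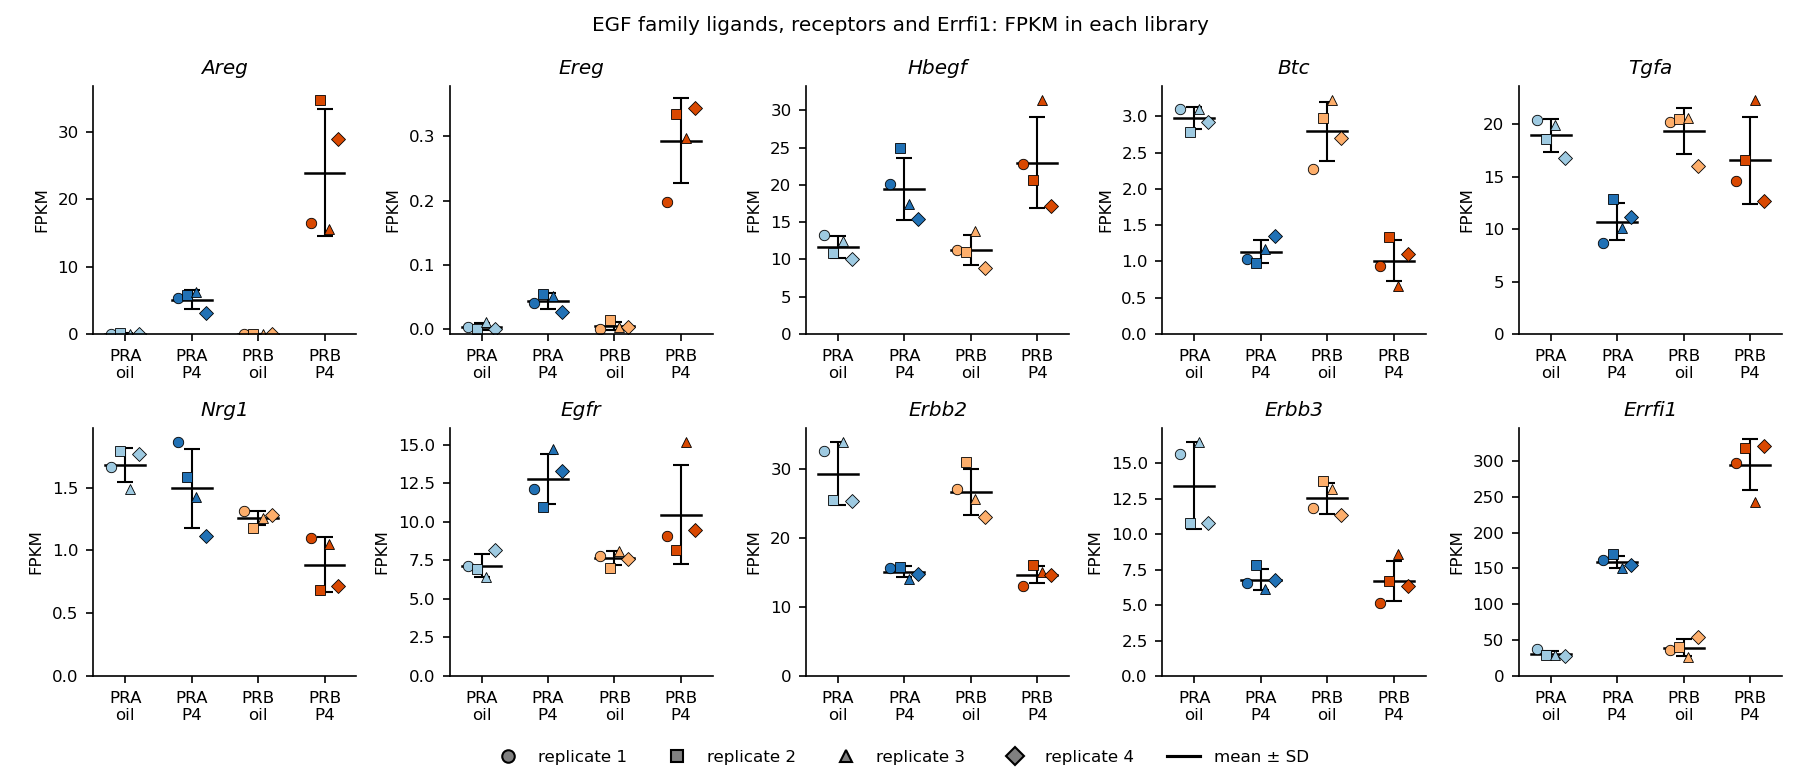
FPKM (y axis, linear from 0, own scale for each gene) of the 10 members in the 16 libraries, by group on the x axis; points are libraries with a symbol for each replicate number, bars are mean ± SD of 4 libraries. Areg, Ereg and Errfi1 are highest in all 4 PRB P4 libraries, while Btc, Erbb2 and Erbb3 are lower with P4 in both strains.

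Areg, the amphiregulin gene (chromosome 5, 91139599 to 91148432, plus strand, mm10), went from near 0 with oil to a clear level with P4, and further in PRB than in PRA. With oil its values were 0.0426, 0.0988, 0.0285 and 0.0548 FPKM in PRA and 0.0563, 0.0284, 0.0547 and 0.0416 in PRB. With P4 they were 5.38, 5.81, 6.17 and 3.05 FPKM in PRA and 16.4, 34.7, 15.7 and 29.0 in PRB. No oil library overlapped a P4 library, and the lowest PRB P4 library lay above the highest PRA P4 library. Within PRB P4 the 4 values were spread widely, 2 near the lower end and 2 near the upper.

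The mean Areg level was 90.9 times higher with P4 than with oil in PRA, 529.7 times higher in PRB, and 4.70 times higher in PRB P4 than in PRA P4. The oil levels rested on few fragments: the FPKM values correspond to about 18 fragments over the 4 PRA oil libraries and 15 over the 4 PRB oil libraries, against 1594 and 7235 with P4. From these the ratio was 93.2 (exact 95% interval 58.8 to 158) in PRA and 532 (323 to 952) in PRB, and 4.73 (4.48 to 5.0) between the strains with P4; the intervals cover counting error only, while replicates spread more. On the log2(FPKM + 1) scale Areg rose by 2.50 in PRA (SE 0.22, limma, adjusted p = 1.585e-07) and by 4.50 in PRB (SE 0.22, adjusted p = 5.737e-10). A pseudocount of 0.1 FPKM in place of 1 gave 5.03 in PRA and 7.29 in PRB.

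With oil no strain difference in Areg was called (-0.01 on the log2 scale, interval -0.49 to 0.46, adjusted p = 1). At oil means of 0.0562 FPKM in PRA and 0.0452 in PRB this scale could hardly show one. The interval also draws on the spread of all 4 groups. With P4 Areg was higher in PRB by 1.99 (SE 0.22, adjusted p = 9.445e-05). The P4 response was larger in PRB by 2.00 (SE 0.32, 95% interval 1.32 to 2.68, adjusted p = 0.005311), and by 2.17 without PRB P4 replicate 3 (0.001772). With both oil levels near 0, this difference of responses nearly repeats the strain difference with P4. Against all tested features, the mean Areg level exceeded 0.532% of them in PRA oil and 0.474% in PRB oil, 24.3% in PRA P4 and 63.1% in PRB P4. Areg passed the filter of 1 FPKM only through its P4 libraries, and that filter leaves few features as low as its oil level.

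Ereg, the epiregulin gene, is the neighbour of Areg on chromosome 5 (91074622 to 91093646, plus strand), 45.95 kb before it, and was likewise highest in PRB P4 and next in PRA P4, at a far lower level. Its values were 0.00359, 0, 0.0110 and 0 FPKM in PRA oil and 0, 0.0143, 0.00392 and 0.00350 in PRB oil. With P4 they were 0.0409, 0.0546, 0.0519 and 0.0266 in PRA and 0.198, 0.334, 0.298 and 0.344 in PRB. P4 libraries lay above oil libraries in both strains, and every PRB P4 library lay above every PRA P4 library.

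These Ereg levels correspond to about 4 and 6 fragments in all for PRA oil and PRB oil, and 46 and 301 with P4. The ratio was 12.1 (exact 95% interval 4.42 to 46.3) in PRA, 55.4 (25.1 to 152) in PRB and 6.82 (4.99 to 9.51) for PRB P4 over PRA P4. Ereg was below the filter and has no test in the fit. An exact two-sided permutation test of the FPKM values gave p = 0.0286 for each of these 3 comparisons (4 against 4 libraries, the smallest p this design allows), and 0.0763 after Benjamini-Hochberg adjustment over 16 such tests of low genes. With no filter, limma gave 0.06 in PRA (adjusted p = 0.0966), 0.36 in PRB (6.119e-08) and 0.31 for the difference of responses (0.001643).

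Areg and Ereg lie in a stretch of chromosome 5 with 2 further ligand genes, Epgn (epigen) before Ereg and Btc after Areg, and the table holds no other protein-coding gene between Epgn and Btc. The 4 neighbours did not move as one. Epgn, 39.41 kb before Ereg, went from 0.0324 ± 0.0230 to 0.0909 ± 0.0228 FPKM with P4 in PRA and from 0.0299 ± 0.0134 to 0.0887 ± 0.0320 in PRB (SD, n = 4), and the strains overlapped. Its exact permutation p was 0.0286 in PRA and 0.0571 in PRB, and 0.0763 and 0.131 after adjustment. With no filter limma called Epgn higher in both strains, by 0.08 in each (adjusted p = 0.00724 in PRA and 0.007224 in PRB). Btc, 208.8 kb after Areg and on the minus strand, fell.

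Btc, the betacellulin gene (91357261 to 91402994), was lower with P4 in both strains. Its values were 3.10, 2.79, 3.10 and 2.92 FPKM in PRA oil and 1.04, 0.978, 1.17 and 1.35 in PRA P4. In PRB they were 2.28, 2.97, 3.23 and 2.70 with oil and 0.940, 1.33, 0.665 and 1.10 with P4. Oil and P4 libraries did not overlap in either strain, whereas the strains overlapped at each treatment. Btc fell by 0.90 on the log2 scale in PRA (SE 0.11, adjusted p = 3.102e-06) and by 0.92 in PRB (SE 0.11, 2.451e-06), which is 2.62 and 2.77 times lower in mean FPKM. The difference of the responses was -0.02, with an interval of -0.35 to 0.30 (adjusted p = 0.9659).

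Hbegf, the HB-EGF gene (chromosome 18, 36504927 to 36515805, minus strand), rose with P4 in both strains. It was at 13.2, 10.9, 12.4 and 10.1 FPKM in PRA oil and 20.1, 25.0, 17.4 and 15.4 in PRA P4, and at 11.3, 11.0, 13.8 and 8.88 in PRB oil and 22.8, 20.7, 31.4 and 17.2 in PRB P4. P4 libraries lay above oil libraries in each strain, and the 2 P4 groups overlapped. The rise was 0.68 (SE 0.18, adjusted p = 0.003185) in PRA and 0.95 (SE 0.18, 0.0002118) in PRB, or 1.67 and 2.05 times in mean FPKM. The responses differed by 0.28, with an interval of -0.26 to 0.81 (adjusted p = 0.6343).

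Tgfa, the gene of TGF-alpha (chromosome 6, 86195223 to 86275719, plus strand), had the highest oil level of the 5 member ligands of the EGF receptor and fell in PRA. Its values were 20.4, 18.5, 19.9 and 16.8 FPKM in PRA oil and 8.68, 12.9, 10.1 and 11.2 in PRA P4. In PRB they were 20.2, 20.5, 20.5 and 16.02 with oil and 14.6, 16.5, 22.3 and 12.7 with P4. The 2 PRA groups did not overlap, while in PRB the P4 values spanned the oil values. Tgfa fell by 0.78 in PRA (SE 0.15, adjusted p = 0.0002435), 1.77 times in mean FPKM, and the PRB difference was -0.23 (SE 0.15, 0.1687). With P4 Tgfa was higher in PRB by 0.57 (SE 0.15, adjusted p = 0.01786), but the difference of the responses, 0.54 with an interval of 0.10 to 0.99 before adjustment, was not called over all features (adjusted p = 0.199). Without PRB P4 replicate 3, the library at 22.3 FPKM, Tgfa was called lower in PRB too (-0.38, adjusted p = 0.0146). A fit of the 2 P4 groups alone left the strain difference uncalled (adjusted p = 0.0769).

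Nrg1, the neuregulin 1 gene (chromosome 8, 31814551 to 32884029, minus strand), was low throughout, with PRB values below PRA values. Its values were 1.66, 1.79, 1.49 and 1.77 FPKM with oil and 1.86, 1.58, 1.42 and 1.11 with P4 in PRA, and in PRB 1.31, 1.18, 1.25 and 1.28 with oil and 1.10, 0.682, 1.05 and 0.713 with P4. All PRB libraries lay below all PRA libraries given the same treatment. Among 15408 tested features this order was seen in 330 with oil and 1686 with P4, and separation in either direction in 3.39% and 20.2%. The strain difference was -0.25 with oil (SE 0.10, adjusted p = 0.8736, not called) and -0.40 with P4 (SE 0.10, adjusted p = 0.01876, called). With P4 Nrg1 fell in PRB by 0.27 (SE 0.10, adjusted p = 0.03427), and the PRA difference was -0.11 (SE 0.10, 0.3628). The PRB call was lost without PRB oil replicate 1, 3 or 4, without PRB P4 replicate 2 or 4 (adjusted p from 0.05725 to 0.1031) and with quantile normalization (-0.05, 0.7144). The strain call with P4 was lost without PRA P4 replicate 2 (0.05298) or PRB P4 replicate 2 (0.05714), and in a fit of the P4 groups alone (0.0676).

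Summed over the 5 member ligands of the EGF receptor, which FPKM allows since it is per length, the transcript level with P4 was higher in PRB than in any other group, and its makeup changed. Egf and Epgn, ligand genes outside the members, were left out of the sum. The sum was 33.6 ± 3.13 FPKM with oil and 36.4 ± 5.85 with P4 in PRA, and 33.4 ± 4.18 and 64.8 ± 8.66 in PRB (SD, n = 4). The 4 PRB P4 libraries, 54.9 to 73.6 FPKM, lay above all others. Areg made up 0.171 ± 0.0991% of the sum in PRA oil and 0.136 ± 0.0369% in PRB oil, then 14.0 ± 3.34% in PRA P4 and 36.9 ± 12.8% in PRB P4. The share of Tgfa went from 56.3 ± 0.782% to 29.6 ± 4.73% in PRA and from 57.9 ± 2.34% to 25.5 ± 4.78% in PRB. Hbegf made up 34.6 ± 1.11% with oil and 53.1 ± 3.88% with P4 in PRA, and 33.5 ± 2.21% and 35.7 ± 8.64% in PRB. In PRA P4 Hbegf was thus the first ligand by transcript level, and in PRB P4 Areg and Hbegf had overlapping shares. These shares describe transcripts, and no protein was measured.

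**Figure D2:**
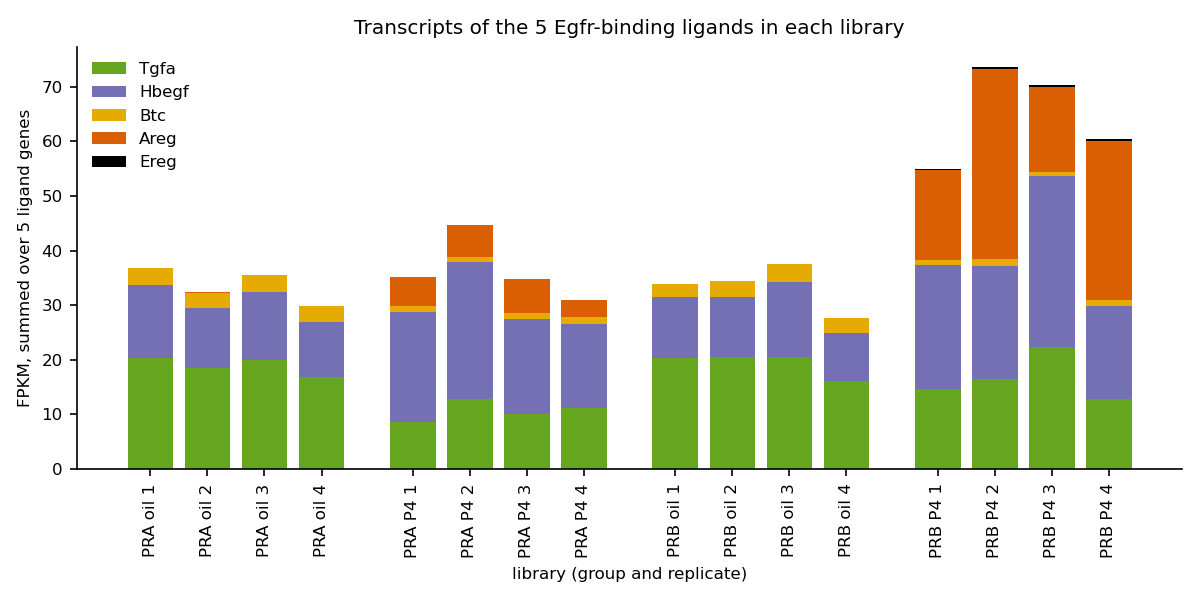
Stacked bars of FPKM (y axis, from 0) of Tgfa, Hbegf, Btc, Areg and Ereg in each of the 16 libraries (x axis). The PRB P4 libraries reach 54.9 to 73.6 FPKM in all, with Areg a large part of each bar, while the oil bars hold almost no Areg.

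Among the receptors, Egfr, the EGF receptor gene (chromosome 11, 16752203 to 16918158, plus strand), rose with P4. It was at 7.13, 6.93, 6.41 and 8.16 FPKM in PRA oil and 12.2, 10.9, 14.7 and 13.3 in PRA P4. In PRB it was at 7.78, 7.03, 8.12 and 7.62 with oil and 9.07, 8.15, 15.2 and 9.50 with P4. All P4 libraries lay above the oil libraries of their strain, though in PRB the lowest P4 value exceeded the highest oil value only narrowly and 1 P4 library stood far above the other 3. Egfr rose by 0.75 in PRA (SE 0.14, adjusted p = 0.0002612) and by 0.37 in PRB (SE 0.14, 0.02998), 1.78 and 1.37 times in mean FPKM.

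The PRB result for Egfr depends on that library, PRB P4 replicate 3. Without it the rise was 0.20 and was not called (adjusted p = 0.07608), Egfr was lower in PRB P4 than in PRA P4 by 0.47 (adjusted p = 0.004938; with it the difference was -0.29, adjusted p = 0.1802), and the P4 responses differed by -0.56 (adjusted p = 0.03416; with it -0.38, adjusted p = 0.3767). The PRB call was also lost without PRB oil replicate 2 (0.0729) or 4 (0.05306), and in a fit of the PRB libraries alone (0.08166). That library had the highest summed epithelial markers and the lowest smooth muscle markers. Its gland sum was also the highest, through Spink3, while its Cxcl15 level was the lowest of its group. The part of these in its Egfr value was not tested.

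Erbb2, the gene of the ligandless partner receptor (chromosome 11, 98412470 to 98437716, plus strand), fell in both strains. Its values were 32.5, 25.4, 33.8 and 25.3 FPKM in PRA oil and 15.6, 15.8, 14.0 and 14.8 in PRA P4, then 27.1, 30.9, 25.6 and 23.0 in PRB oil and 13.1, 16.1, 15.0 and 14.6 in PRB P4. The P4 libraries of both strains fell in one narrow range, well below every oil library. The fall was 0.90 in PRA (SE 0.10, adjusted p = 2.092e-06) and 0.81 in PRB (SE 0.10, 6.139e-06), 1.94 and 1.82 times in mean FPKM. The difference of the responses was 0.09, with an interval of -0.23 to 0.40 (adjusted p = 0.8161).

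Erbb3, the gene of the neuregulin receptor that lacks strong kinase activity of its own (chromosome 10, 128567523 to 128589652, minus strand), fell alongside. It was at 15.6, 10.8, 16.5 and 10.8 FPKM with oil and 6.53, 7.81, 6.11 and 6.75 with P4 in PRA, and in PRB at 11.8, 13.7, 13.2 and 11.4 with oil and 5.18, 6.68, 8.63 and 6.32 with P4. No P4 library overlapped an oil library. Erbb3 fell by 0.87 in PRA (SE 0.15, adjusted p = 9.812e-05) and by 0.83 in PRB (SE 0.15, 0.0001521), and the responses differed by 0.04, with an interval of -0.41 to 0.49 (adjusted p = 0.9538).

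By transcript level Egfr held a larger share of the receptors with P4, at a lower total. The 3 receptor genes summed to 49.8 ± 7.17 FPKM in PRA oil and 34.6 ± 0.252 in PRA P4, while in PRB the sums were 46.8 ± 3.97 with oil and 31.8 ± 4.89 with P4 (SD, n = 4). Egfr made up 14.7 ± 3.21% of the sum in PRA oil and 36.9 ± 4.43% in PRA P4, and 16.4 ± 1.98% and 32.5 ± 5.26% in PRB. Erbb2 stayed the largest of the 3 in the group means, at 58.6 ± 1.02% and 43.5 ± 2.61% in PRA and 56.8 ± 2.56% and 46.6 ± 5.64% in PRB.

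Errfi1, also known as Mig6, encodes a protein that binds the kinase domains of EGF receptor family members and blocks them (chromosome 4, 150853919 to 150868892, plus strand), and it had the highest mean level of the members in every group, though with oil its values overlapped those of Erbb2. Its values were 37.4, 28.9, 29.1 and 28.5 FPKM in PRA oil and 162, 169.8, 151 and 154 in PRA P4. In PRB they were 35.7, 40.1, 26.9 and 55.1 with oil and 297, 318, 243 and 320.4 with P4. No oil library reached a P4 library, and every PRB P4 library exceeded every PRA P4 library. Errfi1 rose by 2.33 in PRA (SE 0.16, adjusted p = 1.356e-08) and by 2.91 in PRB (SE 0.16, 1.746e-09), 5.15 and 7.48 times in mean FPKM. With P4 it was higher in PRB by 0.88 (SE 0.16, adjusted p = 0.002943), 1.85 times. The strains differed by 0.30 with oil (interval -0.05 to 0.65), and the difference of the P4 responses, 0.57 with an interval of 0.08 to 1.07 before adjustment, was not called over all features (adjusted p = 0.2266). By mean level Errfi1 ranked 185 among the 15408 tested features in PRB P4 and 493 in PRA P4.

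**Figure D3:**
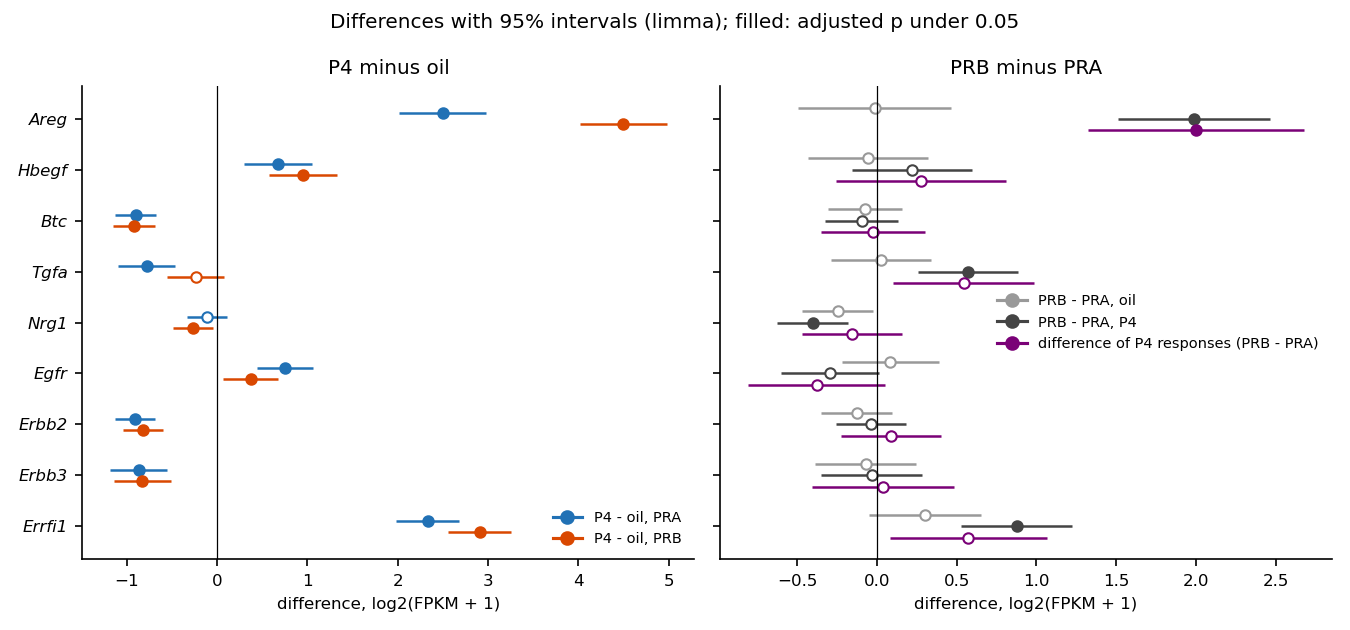
Differences on the log2(FPKM + 1) scale (x axis) with 95% intervals from limma for the 9 tested members (y axis); filled points had an adjusted p under 0.05. The left panel gives P4 minus oil in each strain, the right panel PRB minus PRA under each treatment and the difference of their P4 responses; among these differences of responses Areg at 2.00 is the only filled point.

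Cell type markers were set beside these members. The summed epithelial markers were 803 ± 46.1 FPKM with oil and 1071 ± 114 with P4 in PRA, and 823 ± 27.9 and 1326 ± 112 in PRB (SD, n = 4), and of the 7 markers 3 were called higher and 2 lower in PRA, 3 higher and none lower in PRB, 71.4% and 42.9% of the list against 69.8% and 69.1% of all features. Cldn3 weighs heavily on these sums, with means from 158 to 379 FPKM in PRA and from 179 to 589 in PRB. Mean levels of Krt8, Krt19, Cldn7 and Cdh1 also rose in both strains, and those of Epcam and Krt18 fell. Between the strains with P4, where 16% of all features were called, Cldn3, a tight junction gene, was the 1 epithelial marker called higher in PRB (0.63, adjusted p = 0.001301); Epcam (0.23, 0.0942) and Krt18 (0.34, 0.07196) were among the 6 not called. Of 4 endothelial markers, 2 were called higher in PRB, Pecam1 (0.48, adjusted p = 0.01388) and Cldn5 (0.45, 0.04798). The summed endothelial level was 114 to 142 FPKM in the PRA P4 libraries and 162 to 172 in those of PRB P4. Lum, 1 of 7 stromal markers, was called lower (-0.29, 0.02311). No marker of glands, smooth muscle, leukocytes or mesothelium was called in that comparison, but the gland marker Spink3 differed by 1.78 (SE 0.71, adjusted p = 0.1046), with 0.676 to 2.97 FPKM in PRA P4 and 0.997 to 65.997 in PRB P4. The part of these differences in the Areg, Tgfa, Nrg1 and Errfi1 results between the strains was not tested.

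Of the 6 remaining ligand and receptor genes of the family, Nrg2 and Nrg4 passed the filter and were tested, and the other 4 were below it. Nrg2 lay between 7.37 and 15.9 FPKM and Nrg4 between 7.93 and 13.3 FPKM in the group means. Nrg2, a neuregulin, was lower with P4 in PRB (-0.99, adjusted p = 0.001031) and not called in PRA (-0.33, 0.1911). Nrg4, a ligand of ErbB4, was higher in PRB (0.67, 0.002313) and not called in PRA (0.35, 0.07184), where it was called without PRA oil replicate 1 (0.49, 0.0151) or 3 (0.43, 0.04417) and with quantile normalization (0.46, 0.02681); neither gene's responses were shown to differ between the strains (adjusted p = 0.3146 for Nrg2 and 0.5434 for Nrg4). Egf, the founding ligand, lay between 0.489 and 0.733 FPKM in the group means and Nrg3 was above 0 in 1 library.

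Erbb4, the neuregulin receptor of the family, was at 0.160, 0.343, 0.225 and 0.286 FPKM in PRA oil and 0.0144, 0.0147, 0.00359 and 0.0111 in PRA P4. In PRB it was at 0.193, 0.141, 0.259 and 0.0612 with oil and 0.0368, 0.0369, 0.0380 and 0.00745 with P4. All P4 libraries lay below the oil libraries of their strain. The exact two-sided permutation test gave p = 0.0286 in each strain (4 against 4 libraries), the smallest this design allows, and 0.0763 after adjustment. With no filter limma called Erbb4 lower in PRA (-0.31, adjusted p = 6.25e-05) and in PRB (-0.17, 0.006174).

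The list for release of the ligands from the membrane held 10 genes, among them Timp3, which encodes an inhibitor of such proteases. In this list 2 genes, Rhbdf1 and Adam15, had a P4 response that differed between the strains. In that comparison 2.28% of all features were called. Of 10 genes in this list, all tested, 3 were called higher and none lower in PRA (Adam12, Adam9 and Adam8), and 4 higher and none lower in PRB (Rhbdf1, Adam12, Adam9 and Adam15), 30% and 40% of the list against 69.8% and 69.1% of all features. The list's median difference was 0.13 in PRA and 0.10 in PRB. Adam17, the sheddase best known for cutting amphiregulin and TGF-alpha loose, was at 17.9 ± 1.27 FPKM with oil and 19.4 ± 0.663 with P4 in PRA and at 18.4 ± 1.21 and 19.1 ± 1.70 in PRB (SD, n = 4) and was not called in PRA (0.11, adjusted p = 0.133) or PRB (0.05, 0.5186).

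Rhbdf1 encodes iRhom1, a partner that the Adam17 protease needs for its maturation (chromosome 11, 32209585 to 32222300, minus strand). It was at 35.8, 38.9, 38.5 and 36.4 FPKM with oil and 45.6, 42.5, 41.3 and 36.9 with P4 in PRA, and in PRB at 38.0, 38.6, 32.6 and 41.2 with oil and 79.3, 86.1, 84.6 and 89.2 with P4. The PRB P4 libraries stood apart from all 12 others, which overlapped. Rhbdf1 rose by 1.16 in PRB (SE 0.07, adjusted p = 3.955e-09), was not called in PRA (0.14, SE 0.07, 0.08405), and its responses differed by 1.01 (SE 0.10, adjusted p = 0.0002279). The PRA value was called, at 0.20, without PRA P4 replicate 4 (0.02145), and at 0.14 without PRB oil replicate 3 (0.04465). Rhbdf2, the gene of the related iRhom2, was not called in PRA (0.09) or PRB (-0.03).

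Adam15, a metalloprotease gene (chromosome 3, 89338542 to 89349996, minus strand), had a similar pattern on a smaller scale. It was at 36.8, 36.4, 38.8 and 34.9 FPKM in PRB P4, above the 24.1 to 30.6 FPKM of all other libraries. It rose in PRB by 0.42 (SE 0.07, adjusted p = 0.0001058), the PRA difference was -0.13 (SE 0.07, 0.1251; called lower without PRA oil replicate 4, -0.19, 0.02345, and with quantile normalization, -0.26, 0.004631), and the responses differed by 0.55 (SE 0.10, 0.01363). Adam12, another metalloprotease gene (chromosome 7, 133883199 to 134232146, minus strand), was at 3.46, 4.75, 2.44 and 5.14 FPKM in PRA oil and 16.5, 17.8, 34.3 and 29.2 in PRA P4. In PRB it was at 4.23, 2.30, 5.85 and 7.67 with oil and 5.72, 7.53, 14.6 and 11.1 with P4, where oil and P4 libraries overlapped. Adam12 rose by 2.34 in PRA (SE 0.33, adjusted p = 1.787e-05) and by 0.85 in PRB (SE 0.33, 0.03404), and with P4 it was lower in PRB by 1.26 (SE 0.33, 0.02061), the opposite order to Areg. The difference of its responses, -1.49, was not called (0.1183). The PRB call was lost without any 1 of PRB oil replicates 1 and 2 and PRB P4 replicates 3 and 4 (adjusted p from 0.06983 to 0.1216) and in a fit of the PRB libraries alone (0.06332), and the strain call without PRA P4 replicate 3 or 4 or PRB P4 replicate 1 or 2 (0.05614 to 0.06632).

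**Figure D4:**
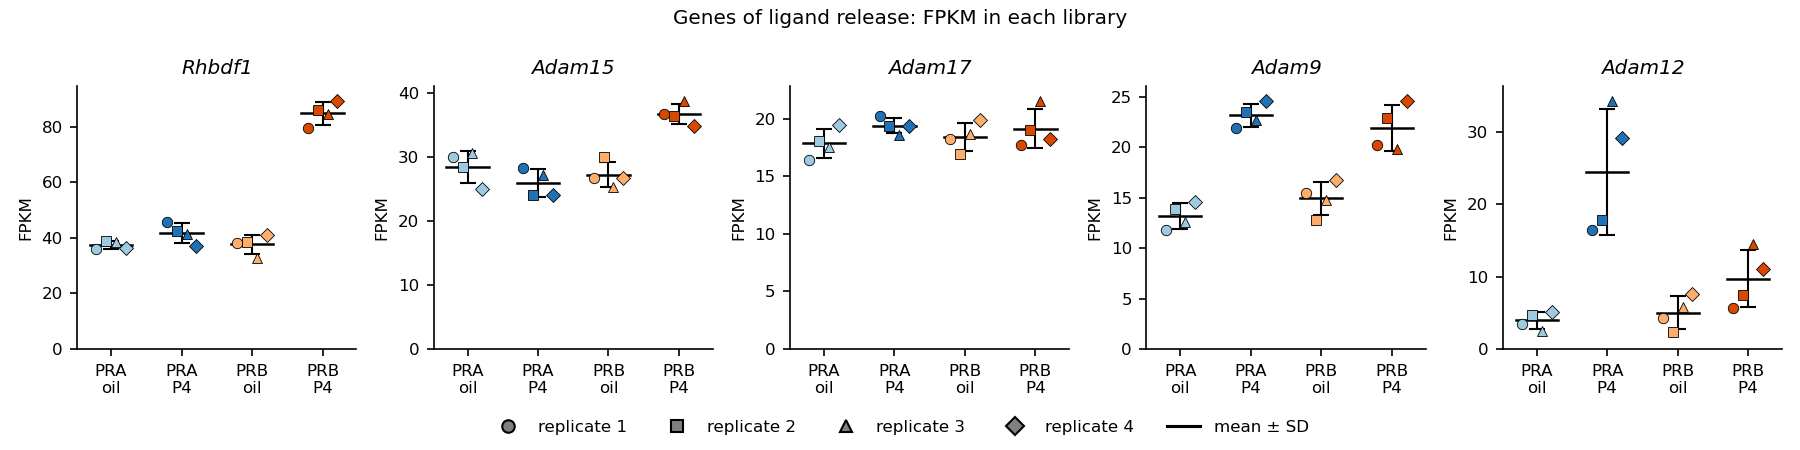
FPKM (y axis, linear from 0) of 5 genes of ligand release in the 16 libraries by group (x axis); points are libraries, bars mean ± SD of 4 libraries. Rhbdf1 at 79.3 to 89.2 and Adam15 at 34.9 to 38.8 FPKM are highest in PRB P4, Adam17 overlaps in all groups, and Adam12 is highest in PRA P4.

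Downstream of the receptors, the adaptors and kinases that pass the signal through Ras to ERK moved in both directions after P4. Of 15 genes, all tested, 8 were called higher and 6 lower in PRA, and 8 higher and 5 lower in PRB, with a median of 0.18 in each. That is 93.3% and 86.7% of the list, against 69.8% and 69.1% of all features, whose medians were 0.01 and 0.00. Gab1, a docking protein recruited by the EGF receptor, had the largest change: its level was 26.4 ± 2.97 FPKM with oil and 7.70 ± 0.287 with P4 in PRA, and 25.6 ± 2.88 and 8.27 ± 0.712 in PRB (SD, n = 4), a fall of 1.65 in PRA (adjusted p = 1.233e-09) and 1.52 in PRB (2.237e-09). Hras, a Ras gene, rose by 0.96 in each strain, and Map2k2, which encodes MEK2, by 0.88 in PRA and 0.80 in PRB. None of the 15 had responses called different between the strains. With P4, 2 of the 15 were higher in PRB, the adaptors Shc1 (0.23, adjusted p = 0.005138) and Grb2 (0.16, 0.03907), where Grb2 lost its call in 8 of 25 alternatives.

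Feedback inhibitors of the pathway moved in both directions. Of 15 genes, 3 were called higher and 8 lower in PRA, and 4 higher and 7 lower in PRB, with medians of -0.20 and -0.13. That is 73.3% of the list in each strain, close to the 69.8% and 69.1% of all features. Of the calls in PRA, Socs5 (higher) was lost in 15 of 25 alternatives and Spred1 and Spred2 (lower) in 6 each, and in PRB Spred1 was lost in 8. Spry4, a Sprouty inhibitor induced by ERK signalling in many cells, rose by 0.98 in PRA (adjusted p = 0.0001187) and by 1.30 in PRB (7.845e-06). Its relative Spry1 fell by 1.04 (1.252e-05) and 0.84 (0.0001079), as did Dusp4, a phosphatase acting on ERK (0.80 and 0.86), and Lrig3, a membrane protein related to the EGF receptor inhibitor Lrig1 (0.70 and 0.88). None of the 15 was called between the strains with P4. Without PRB P4 replicate 3 Spry4 was called higher in PRB (0.63, adjusted p = 0.003382).

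Transcripts that ERK signalling is known to induce were tested in 9 of 10 cases, and 2 were called higher and 1 lower in PRA, 4 higher and 1 lower in PRB. That is 33.3% and 55.6% of those tested, below the 69.8% and 69.1% of all features, and among the PRB calls Etv5 and Epha2 were each lost in 4 of 25 alternatives. Myc rose by 1.02 in PRA (adjusted p = 6.327e-06) and by 0.90 in PRB (2.286e-05), and Phlda1 fell by 0.43 (0.01736) and 0.75 (0.0003271); the Phlda1 call in PRA was lost without PRA P4 replicate 1 (0.06208) or 2 (0.05823). Fos was called higher in PRB (1.55, adjusted p = 0.03878) but not in PRA (0.25, 0.7407), and both results depend on the libraries included. Without PRA oil replicate 1 the PRA difference was 1.08 (0.01675), and without PRB oil replicate 1, 3 or 4 or PRB P4 replicate 1, 2 or 3 the PRB call was lost (0.06023 to 0.1136), as it was with no filter (0.05591). Ier3 was higher in PRB than in PRA with P4 (0.49, adjusted p = 0.03761), a call lost in 8 of 25 alternatives. No gene of the list had responses called different between the strains.

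**Figure D5:**
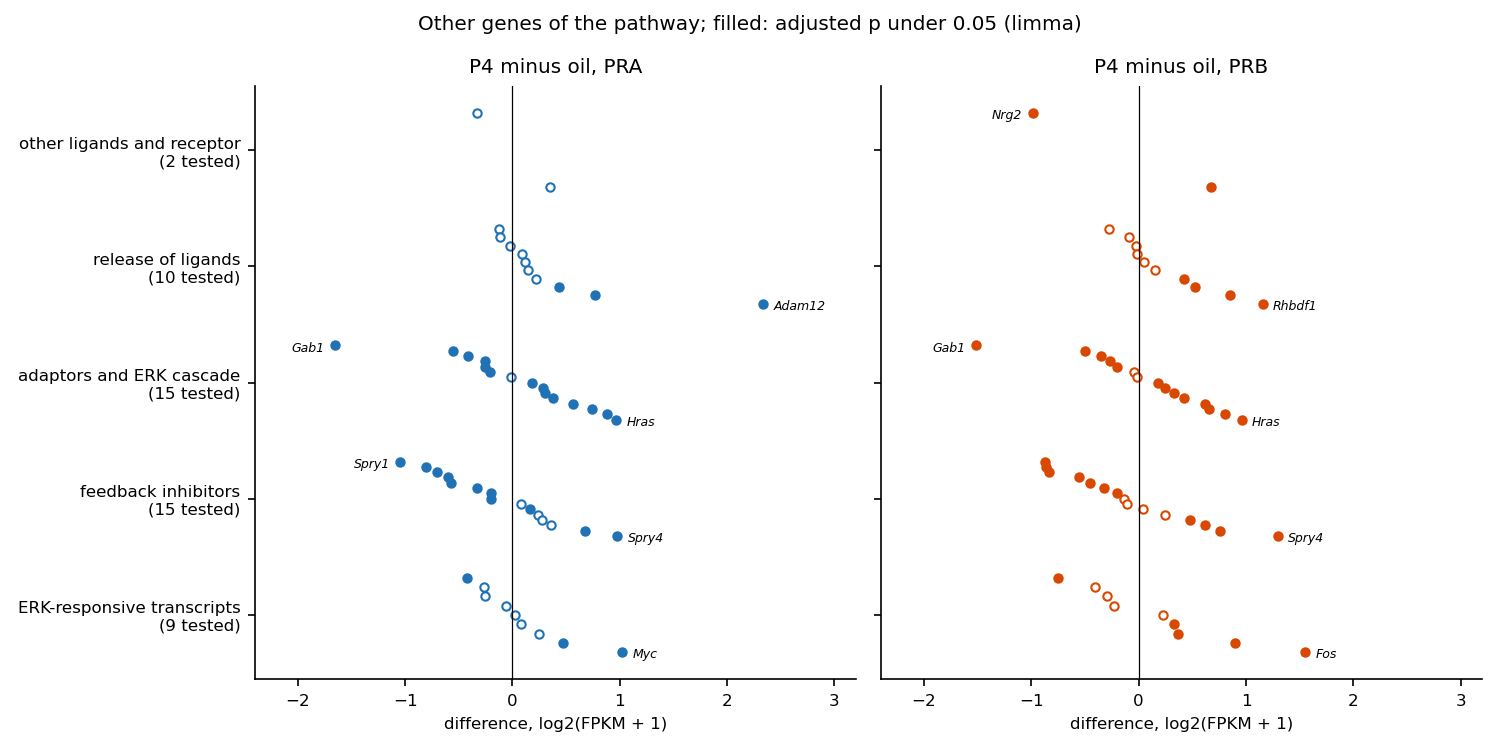
Differences between P4 and oil on the log2(FPKM + 1) scale (x axis) for the tested genes of 5 lists (y axis) in PRA (left) and PRB (right), 1 point a gene; filled points had an adjusted p under 0.05. Gab1 is lowest in both panels, and Adam12 in PRA and Fos in PRB lie farthest to the right.

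The transcripts most like Areg across the 16 libraries, among 13179 named genes, were Nmb (Pearson r = 0.991), Zfand3 (0.988), Slc25a44 (0.988), Gpr82 (0.988) and Tmem115 (0.987), all on the log2(FPKM + 1) scale. Nmb went from 7.74 FPKM in PRA oil and 8.38 in PRB oil to 22.3 in PRA P4 and 58.9 in PRB P4. Those most like Egfr were Tbcd (0.960), Gamt (0.957) and Nvl (0.949). The 16 points share 4 group means, which set most of each correlation, and the values describe likeness of pattern alone.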

How the data were processed

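FPKM values of the whole-uterus libraries were used as deposited. TopHat2 2.0.4, Cufflinks 2.0.2, Cuffdiff and mm10 are named in the submitters' processing notes, without roles or order; the annotation, strandedness and scaling were not given in the sources used here. FPKM was compared as log2(FPKM + 1), which understates changes of low genes, with limma 3.58.1 in R 4.3.3: all 16 libraries in 1 model of group means, two-sided moderated tests (intensity trend on), a filter of 1 FPKM on the mean, and Benjamini-Hochberg adjustment over all 15408 tested. Procedures were tested on simulated data. The text names the 10 members, all 6 other ligand and receptor genes, up to 4 of the most changed called genes of each other list, and 5 genes most like Areg and 3 most like Egfr. The release genes plotted are others singled out by their values or known role. Members and lists were chosen with earlier results of these data known; a few listed genes are not reported here and were left out of their lists' counts. Coordinates are from GENCODE M21 on mm10. Fragment numbers were estimated from the spacing of low FPKM values. Alternatives covered the pseudocount, filter, scaling, trend, replicate block, libraries fitted, and each library left out.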

Additional observations from a re-analysis of the deposited data

Results flagged for a closer look

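Among 40 groups of 4 values (10 members in 4 groups), 2 held a library far from the other 3 by Dixon's criterion, and chance alone flags about 1 group in 20, so 2 are no more than chance gives. Tgfa was 16.02 FPKM in PRB oil replicate 4 against 20.2 to 20.5 in the other 3, a gap of 0.933 of the range. Errfi1 was 37.4 FPKM in PRA oil replicate 1 against 28.5 to 29.1, a gap of 0.929.

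The P4 response differed between the strains for Areg by 2.00 on the log2 scale, for Rhbdf1 by 1.01 and for Adam15 by 0.55, each larger in PRB and called by limma over all features (adjusted p = 0.005311, 0.0002279 and 0.01363). In each of the 3 genes all 4 PRB P4 libraries lay above every other library. The genes were picked by calls on these same values, and the share of all features with this order was not computed.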

How the results depend on the processing

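For the members 1111 recomputed values were compared with their 50 reported ones: 1091 kept their call or stayed uncalled, 14 lost a call, 6 gained one and none reversed a call. Values that stayed uncalled could change sign, as Nrg1 did for the P4 response in PRA (-0.18 to 0.09 over the alternatives). With only the P4 libraries, 2 members in place of 4 were called between the strains. The members whose P4 responses differed were 2 in place of 1 with no filter on low values, which adds Ereg, and 2 without PRB P4 replicate 3, which adds Egfr. Leaving out each library in turn gave 8 to 8 members called in PRA, 6 to 8 in PRB, 0 to 0 between strains with oil, 3 to 5 with P4 and 1 to 2 for the difference, and the Areg difference ran from 1.80 to 2.17 (adjusted p 0.001772 to 0.01553). Over all features, the strains with P4 gave 2471 calls, 1640 with only their libraries and 1416 without PRA P4 replicate 4; the strains with oil gave 18, with 6 to 33 over the alternatives; the difference gave 352, with 155 without PRA P4 replicate 4 and 508 without PRB P4 replicate 3. Replicate numbers did not pair the libraries (24 same-number pairs, correlation -0.229 to 0.312, 6 over 0.1, 9 best with their own number). With the replicate block, members called were 8, 8, 0, 4 and 1 in the 5 comparisons and the Areg difference was 2.00 (adjusted p = 0.01148), and calls for the difference over all features were 467. Depth limits Ereg, Epgn and Areg with oil, each resting on few fragments.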

Other observations

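One oil library held high immediate-early transcripts beside the highest Errfi1 value of its group. In PRA oil replicate 1 Fos was 44.6 FPKM against 3.18 to 3.84 in the other 3 PRA oil libraries, and Egr1, another early ERK-responsive gene, was 71.7 against 14.3 to 21.98. Dusp5, a phosphatase gene of the feedback list, was 5.64 against 2.97 to 3.24 in the same libraries. Areg in that library, 0.0426 FPKM, lay within the range of its group. These genes were chosen after their values were seen, and the part of this library's state in its Errfi1 value was not tested.

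Ccnd1, the cyclin D1 gene, was 30.1 FPKM in PRB P4 replicate 3, the library with the highest Egfr of its group, against 66.1 to 75.6 in the other 3 PRB P4 libraries.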
